A study of Arabidopsis thaliana with 6 samples.

Results

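Hybrid proline-rich proteins of the lipid-transfer-like kind were examined in Arabidopsis thaliana through 10 listed loci, 9 of them in a tandem cluster on chromosome 4 that runs from AT4G12470 to AT4G12550, and 1, AT1G62500, on chromosome 1. A locus was included when the gene ID that the platform's probe table gives for a probe set led to it. This found 7 probe sets among 17504 with a gene, and they cover 7 of the 10 loci. Probe sets of their own were found for 5 loci, AT4G12490, AT4G12500, AT4G12530, AT4G12545 and AT1G62500. The other 2 probe sets each name both AT4G12510 and AT4G12520, so the signals of these neighbours cannot be told apart. AZI1 (AT4G12470), EARLI1 (AT4G12480) and AIR1 (AT4G12550) were not analysed here.

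The arrays measured total RNA of whole seedlings of the line 35S::PLT2-GR, 3 from flasks given dexamethasone at 10 µM for 6 h and 3 from mock flasks given only the solvent DMSO for 6 h. Every seedling in both groups carried the transgene, in which the broadly active 35S promoter drives PLT2, a PLETHORA transcription factor with AP2 domains that is known for its role in root formation, joined to a glucocorticoid receptor part that keeps the protein out of the nucleus until dexamethasone is added. Seedlings were 4 days old when moved in batches of about 50 into 50 ml of liquid medium, where they stayed overnight before treatment, and the labels call the flasks biological replicates. Seedlings without the fusion but with dexamethasone were not analysed here, so effects of the steroid and of the fusion cannot be told apart.

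Hybrid proline-rich proteins are small proteins of plants that are led to the secretory pathway by a signal peptide. A stretch rich in proline is followed by a domain with a set spacing of 8 cysteines, the fold also found in lipid-transfer proteins and seed albumins. Members of the chromosome 4 cluster are known from defence and from roots. AZI1 is induced by azelaic acid and takes part in the priming of systemic immunity. EARLI1 was found as a gene induced by aluminium and is linked to cold and pathogen responses, and AIR1 was found as a gene induced by auxin in root cultures. AT1G62500 is the source of the CO2 promoter, used as a marker of the root cortex.

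The group was chosen by the difference between dexamethasone and mock in these same arrays, in which the large fall of AT4G12500 was already known. The differences between dexamethasone and mock are therefore given for the members as a description, and no p-value is attached to them. The other gene lists below were also drawn up with earlier results of these data known. Values are log2 probe set values as deposited, a change is the dexamethasone mean minus the mock mean on that scale, SD is taken within a group of 3 arrays, and a probe set is said to have passed the threshold when its adjusted p in the fit of all 17504 probe sets was under 0.05. The medians of the 6 arrays lay between 5.43 and 5.48. Because whole seedlings were measured, fewer cells of a type and less RNA per cell cannot be told apart in any of the values below.

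In dexamethasone-treated seedlings the probe sets of 3 neighbouring cluster genes, AT4G12500, AT4G12510 and AT4G12520, were 2.63-fold to 3.38-fold lower than in mock seedlings. The neighbour AT4G12490 lay lower by a smaller margin, and the means of AT4G12545 and AT1G62500 lay close to their mock means. AT4G12530 was under the first quartile on all 6 arrays, so its change of 0.28 says little. By limma 3 of the 7 probe sets passed the threshold as falls and none as a rise, beside 9.54% of all probe sets that fell and 9.04% that rose. The 3 are those of AT4G12500 and of the pair AT4G12510 and AT4G12520, so they stand for at most 3 genes and share a signal between them. The median change of the 7 probe sets was -0.64, with a range of -1.76 to 0.28, and the median over all 17504 probe sets was 0.02. The groups did not overlap for the same 3 of the 7 probe sets, with dexamethasone lower, and for none with dexamethasone higher, beside 18.8% and 19.3% of all probe sets. Since the choice of the members used this contrast, nothing is read from these counts.

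**Figure D1:**
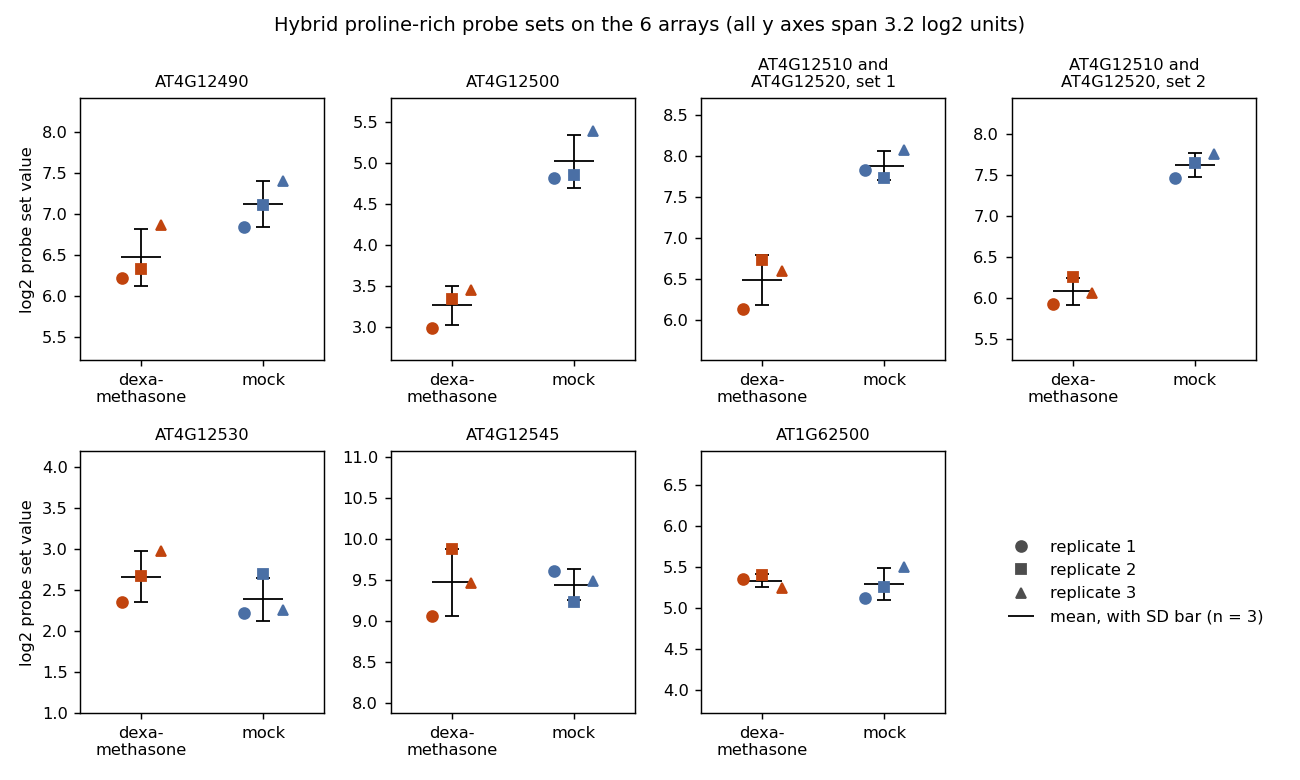
Log2 values of each hybrid proline-rich probe set on the 3 dexamethasone and 3 mock arrays, with marker shapes for replicates 1 to 3 and black bars for the mean and SD. The dexamethasone arrays lie below all mock arrays for AT4G12500 and for both probe sets of AT4G12510 and AT4G12520, touch them for AT4G12490, and mix with them for AT4G12530, AT4G12545 and AT1G62500.

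AT4G12500, a paralogue of AZI1 in the same tandem array, had log2 values of 2.99, 3.34 and 3.45 in dexamethasone replicates 1, 2 and 3, against 4.81, 4.85 and 5.39 in mock replicates 1, 2 and 3. All dexamethasone arrays were below all mock arrays, and a gap of 1.36 separated the highest dexamethasone value from the lowest mock value. The group means were 3.26 ± 0.24 in dexamethasone and 5.02 ± 0.32 in mock seedlings (SD, n = 3 each), a change of -1.76 (SE 0.19) and a 3.38-fold lower level. Only 8 of the 17504 probe sets had a more negative change. The value of dexamethasone replicate 1 was under the first quartile of its own array, and since background levels were not used here the fold is approximate.

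The pair AT4G12510 and AT4G12520, which follow AT4G12500 directly on the chromosome, was read by 2 probe sets that both name both genes. The first had log2 values of 6.14, 6.73 and 6.60 in the dexamethasone arrays, against 7.83, 7.74 and 8.08 in the mock arrays. The second had 5.92, 6.25 and 6.06 in the dexamethasone arrays, against 7.46, 7.64 and 7.75 in the mock arrays. In both, every dexamethasone array was below every mock array, with gaps of 1.01 and 1.21 between the groups. The first averaged 6.49 ± 0.31 in dexamethasone and 7.88 ± 0.17 in mock seedlings (SD, n = 3 each), a change of -1.39 (SE 0.17), or 2.63-fold lower. The second averaged 6.08 ± 0.17 in dexamethasone and 7.61 ± 0.14 in mock seedlings, a change of -1.54 (SE 0.12), or 2.90-fold lower. Counted from the most negative change, they held places 57 and 27 among all probe sets.

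Averaged into 1 value per array, the pair was at 6.03, 6.49 and 6.33 in the dexamethasone arrays, against 7.64, 7.69 and 7.91 in the mock arrays. The averaged change was -1.46, a 2.76-fold lower level. How much of it came from AT4G12510 and how much from AT4G12520 was not tested.

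AT4G12490 lies on the other side of AT4G12500 and also belongs to the AZI1-like part of the cluster. It had log2 values of 6.22, 6.32 and 6.86 in the dexamethasone arrays, against 6.84, 7.10 and 7.40 in the mock arrays. The groups overlapped by 0.02, through dexamethasone replicate 3 and mock replicate 1. The means were 6.47 ± 0.34 in dexamethasone and 7.11 ± 0.28 in mock seedlings (SD, n = 3 each), a change of -0.64 (SE 0.21, 95% interval -1.13 to -0.16). It did not pass the threshold as fitted here, but passed without dexamethasone replicate 3, where its change was -0.84, and with all 6 arrays when the dimmest probe sets were left out or an intensity trend was fitted. RefSeq places AT4G12495 over part of AT4G12490, and which of them the probes read was not checked.

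In the far part of the cluster the groups overlapped for both measured members. AT4G12530 had log2 values of 2.35, 2.67 and 2.97 in the dexamethasone arrays, against 2.22, 2.69 and 2.25 in the mock arrays. All 6 values were under the first quartile of their arrays. Its change was 0.28 (SE 0.20, 95% interval -0.18 to 0.74).

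AT4G12545, the neighbour of AIR1, was well above the array medians, with log2 values of 9.06, 9.88 and 9.46 in the dexamethasone arrays, against 9.61, 9.23 and 9.48 in the mock arrays. The highest and the lowest of the 6 values were both from dexamethasone seedlings. The means were 9.47 ± 0.41 in dexamethasone and 9.44 ± 0.20 in mock seedlings (SD, n = 3 each), with a change of 0.02 and a 95% interval of -0.48 to 0.52. This interval leaves room for a change of up to about 0.5 either way. RefSeq places AT4G12543 over this locus, and the probes were not checked for it.

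AT1G62500, the member outside the cluster, had log2 values of 5.35, 5.40 and 5.24 in the dexamethasone arrays, against 5.12, 5.25 and 5.50 in the mock arrays. The groups overlapped, with both the lowest and the highest value in mock seedlings. The means were 5.33 ± 0.08 in dexamethasone and 5.29 ± 0.19 in mock seedlings (SD, n = 3 each), and the change of 0.04 had a 95% interval of -0.25 to 0.32, the narrowest among the members.

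Replicates of a group differed more for most members than for a typical probe set. The median SD over all probe sets was 0.15 in the dexamethasone arrays and 0.13 in the mock arrays, while the members' SDs ran from 0.08 to 0.41 in dexamethasone and from 0.14 to 0.32 in mock seedlings. Dexamethasone replicate 1 held the lowest dexamethasone value for 6 of the 7 probe sets, as it did for 32.9% of all probe sets. Mock replicate 3 held the highest mock value for 5 of the 7, as it did for 37.4% of all. Without dexamethasone replicate 1 the change of AT4G12500 was -1.62, and without mock replicate 3 it was -1.57. The probe sets of AT4G12510 and AT4G12520 had changes of -1.22 to -1.62 over all fits that left out 1 array.

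**Figure D2:**
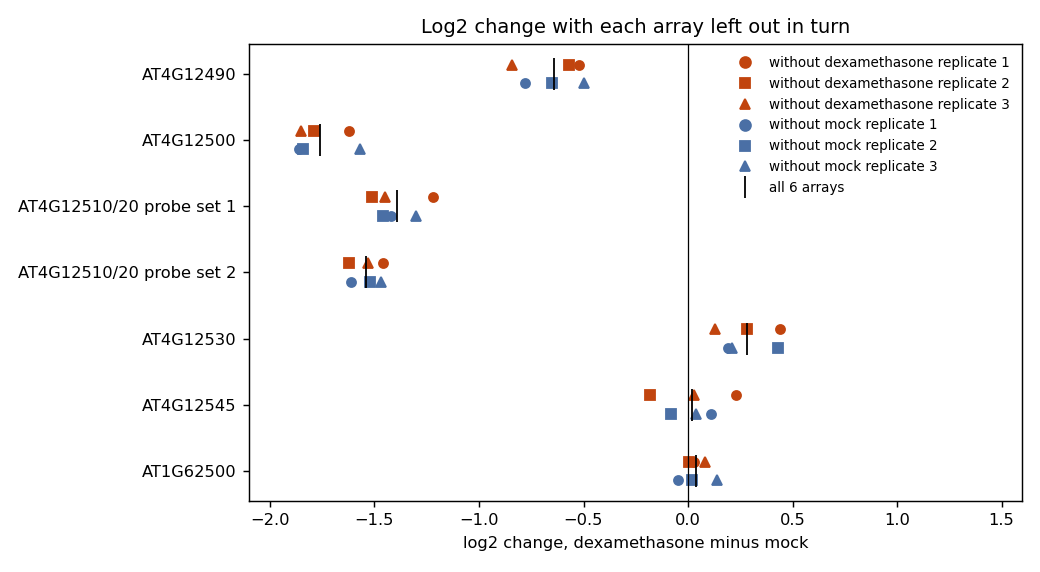
Log2 change of each hybrid proline-rich probe set with 1 array left out (orange for a dexamethasone array, blue for a mock array, shapes for the replicate) and with all 6 arrays (black line). AT4G12500 stays between -1.86 and -1.57 and AT4G12490 between -0.84 and -0.50, while AT4G12545 spreads from -0.18 to 0.23 and AT1G62500 from -0.05 to 0.14, on both sides of 0.

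Set in their order on chromosome 4, the genes named by the probe sets that fell, AT4G12500, AT4G12510 and AT4G12520, lay side by side. The shared probe sets do not show whether both AT4G12510 and AT4G12520 were lower. RefSeq lists no other protein-coding gene between AT4G12500 and AT4G12510, between AT4G12510 and AT4G12520, or between AT4G12520 and AT4G12530. It lists 1 between AT4G12490 and AT4G12500. Of 13 RefSeq genes from AT4G12470 to AT4G12550, 9 are listed members and 4 are not, of which 1, AT4G12540, had a probe set. Of 16 flanking loci listed on both sides of the cluster, 7 were measured, none fell and 1 rose by limma, beside 9.54% and 9.04% of all probe sets, with a median change of -0.01 and a range of -0.64 to 0.47. The gene that rose, AT4G12600, which encodes a protein of the L7Ae ribosomal family, had log2 values of 9.54, 9.61 and 9.52 in dexamethasone, against 9.07, 9.07 and 9.14 in mock seedlings, a change of 0.47 (SE 0.08, limma adjusted p 0.0111). Of the 7, the groups did not overlap for 3 with dexamethasone lower and for 3 with it higher, beside 18.8% and 19.3% of all probe sets. SKU5 (AT4G12420), a cell-surface protein of directional root growth, had a change of -0.36, and Hop3 (AT4G12400), a co-chaperone, one of 0.23. AT4G12450, at the lower end of the range, had one of -0.64, and in all 3 genes the groups were apart. None of these 3 passed, and they were named after their values were seen. A difference between members and flanking genes was not tested.

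**Figure D3:**
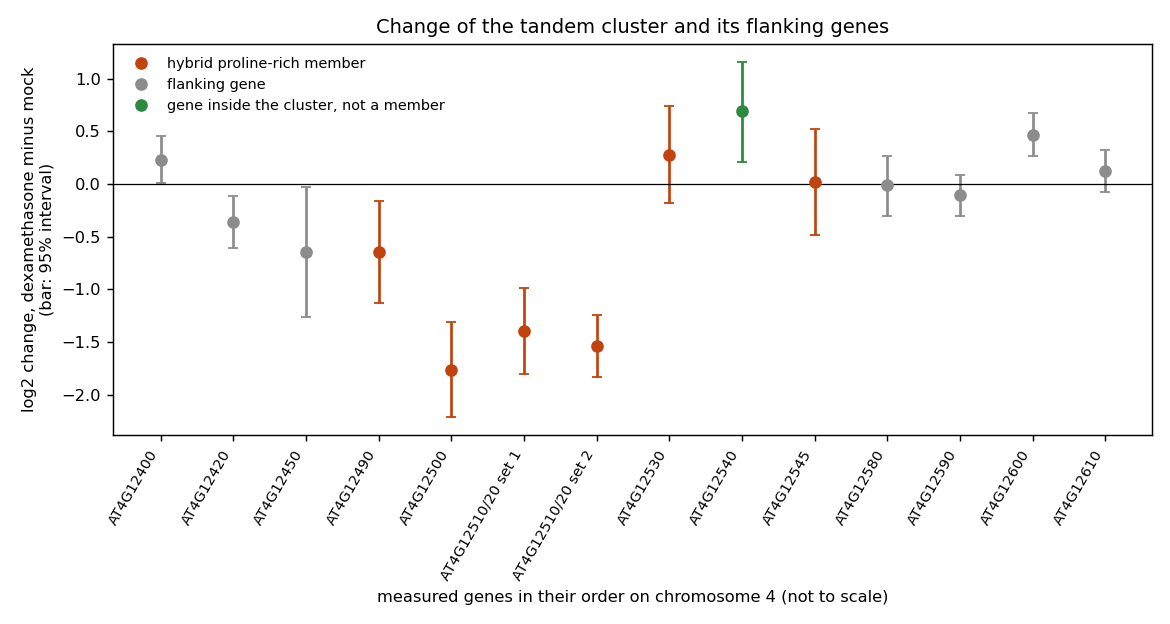
Log2 change, dexamethasone minus mock, with its 95% interval for the measured genes around the cluster in their order on chromosome 4, members in orange, flanking genes in grey and AT4G12540 in green. AT4G12500 (-1.76) and the probe sets of AT4G12510 and AT4G12520 (-1.39 and -1.54) lie lowest, next to AT4G12490 (-0.64), and the genes on either side lie between -0.64 and 0.69.

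Other genes of the same protein family lie elsewhere in the genome, and 13 of 15 such loci on the list were measured, each by 1 probe set of its own. By limma 5 of the 13 fell and none rose, beside the 9.54% and 9.04% of all probe sets, 8 did not pass, and the median change was -0.52 with a range of -1.45 to 0.34. Because this list was drawn up with earlier results of these data known, nothing is read from the count. For the same reason the adjusted p values given for its genes only describe the fit and are no independent support. AT5G46900 had log2 values of 3.72, 3.49 and 3.91 in dexamethasone, against 4.78, 5.45 and 5.25 in mock seedlings, a change of -1.45 (SE 0.19, limma adjusted p 0.00369) and a 2.74-fold lower level. AT4G22460 had 5.77, 6.19 and 6.50 in dexamethasone, against 7.54, 7.60 and 7.39 in mock seedlings, a change of -1.36 (SE 0.18, limma adjusted p 0.00389) and a 2.56-fold lower level. In both genes the groups were clearly apart, as in AT4G12500.

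Smaller falls in the family were seen for AT1G12100, 1.79-fold lower with a limma adjusted p of 0.0277, and for AT2G10940, 1.61-fold lower with 0.00884. AT3G22142, named here after its values were seen because it completes the count, was 1.47-fold lower with 0.0149. The call for AT1G12100 was lost without dexamethasone replicate 1 (limma adjusted p 0.083), dexamethasone replicate 3 (0.0726), mock replicate 2 (0.087) or mock replicate 3 (0.0803), and when probe sets without a gene were fitted too (0.0542).

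Close relatives in tandem did not always show the same value. AT5G46890, next to AT5G46900, had a change of -0.89 (SE 0.29) and did not pass, with a limma adjusted p of 0.0768. Near AT4G22460, AT4G22470 had a change of -0.52 (limma adjusted p 0.0535), AT4G22490 one of 0.34 (0.101) and AT4G22520 one of -0.12 (0.773), and none of them passed. The dexamethasone arrays were all below the mock arrays for AT5G46890 and AT4G22470, and all just above them for AT4G22490. AT1G62510, which directly follows AT1G62500 on chromosome 1, had a change of 0.29 and did not pass either (limma adjusted p 0.228). AT2G45180 and AT4G00165 were at -0.08 and 0.03. None of the differences between these relatives was tested, and the genes in this paragraph were named after their values were seen.

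**Figure D4:**
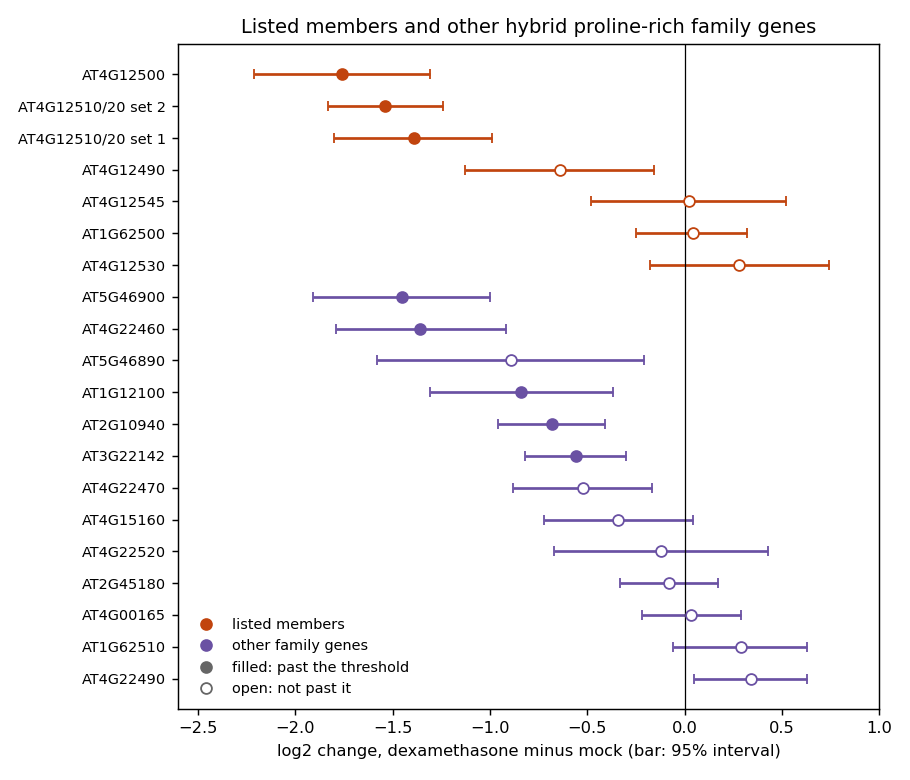
Log2 change, dexamethasone minus mock, with its 95% interval for the 7 probe sets of the listed members (orange) and the 13 other measured family genes (purple), filled where the probe set passed the threshold and open where it did not. In both sets some genes lie below -1, AT4G12500 lowest at -1.76 and AT5G46900 lowest of the others at -1.45, and some lie near 0.

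Genes of the pathways in which AZI1 and AIR1 are known were sparsely measured. Of 18 systemic resistance loci 2 were measured, of which 1 fell and none rose by limma, beside 9.54% and 9.04% of all probe sets. The gene that fell, AT5G48490, encodes a relative of the mobile immune lipid-transfer protein DIR1. It had log2 values of 7.07, 6.82 and 7.03 in dexamethasone, against 8.89, 8.89 and 8.69 in mock seedlings, a change of -1.86 (SE 0.11). Its large fall was known when the list was drawn up, so no p-value is attached and nothing is read from the count. AT5G52810 shares its probe set with another gene and had a change of 0.10.

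Of 15 lateral root and auxin loci 3 were measured and none passed by limma, beside 9.54% of all probe sets that fell and 9.04% that rose. The smallest limma adjusted p was 0.0957. This was LBD29, a transcription factor gene of lateral root initiation, with log2 values of 2.44, 2.74 and 2.70 in dexamethasone, against 2.89, 2.90 and 3.08 in mock seedlings, a change of -0.33. Its dexamethasone values lay under the first quartile of their arrays, and its mock values under or about level with it, so this change is approximate. With so few members measured, these lists say little about either pathway.

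A root marker, PYK10, and a shoot marker, the Rubisco activase gene AT2G39730, were both well above the array medians, as the label of whole seedlings requires. PYK10 averaged 11.93 and AT2G39730 10.82 in dexamethasone, against 11.98 and 11.14 in mock seedlings. Of 5 probe sets for 4 measured root marker loci, 4 fell by limma, beside 9.54% of all probe sets, and the mean log2 value of the 5 was 7.14 to 7.34 on the dexamethasone arrays, against 7.92 to 8.11 on the mock arrays. The root hair expansin genes AT1G12560 and AT1G62980 had changes of -1.23 and -1.34, and AT1G09750, also used as a marker of the root cortex, one of -0.67. The member AT1G62500, source of the CO2 cortex marker, is not on the root marker list and had a change of 0.04. PYK10 (AT3G09260), a beta-glucosidase gene abundant in roots, had a change of -0.05 in its own probe set and -0.64 in 1 that names another gene as well. Both measured shoot markers fell, beside the same 9.54% of all, AT2G39730 with a change of -0.32 and FMA (AT3G24140), a guard cell regulator, with one of -0.63, and their mean log2 value was 8.12 to 8.29 on the dexamethasone arrays, against 8.62 to 8.71 on the mock arrays. Leaving out any 1 array ended the call for AT2G39730, with limma adjusted p up to 0.139, as did robust eBayes (0.0504) and a fit that included probe sets without a gene (0.0674), and the call for FMA ended without mock replicate 1 (0.051) or mock replicate 3 (0.0559). The markers that fell did so in the same direction as AT4G12500, AT4G12510 and AT4G12520, and their part in that difference was not tested.

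Probe sets with the pattern most like that of AT4G12500 were sought among 16741 that name 1 other gene, by the root mean square distance over the 6 arrays after each was centred on its own mean. The nearest were AT2G43880, of the pectin lyase-like superfamily, at a distance of 0.11, AT2G02610 at 0.14 and the pectin methylesterase inhibitor gene AT4G25250 at 0.15, where the median distance was 0.93. AT2G43880 had log2 values of 3.49, 3.78 and 3.94 in dexamethasone, against 5.49, 5.36 and 5.70 in mock seedlings. AT2G02610 had 2.75, 3.00 and 3.49 in dexamethasone, against 4.50, 4.57 and 5.35 in mock seedlings. With 6 arrays in 2 groups, such a distance mostly reflects a like size of the change.

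For AT4G12530, the member with the largest positive change, the nearest patterns were LCR80, a gene of the low-molecular-weight cysteine-rich family, at a distance of 0.05, AT5G52940 at 0.08 and AT3G09085 at 0.09, beside a median of 0.33. LCR80 had log2 values of 2.07, 2.43 and 2.74 in dexamethasone, against 1.88, 2.39 and 2.05 in mock seedlings. Its values, like those of AT4G12530, lay below the first quartile on each array, and none of the 3 neighbours in pattern passed the threshold.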

How the data were processed

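The deposited table holds log2 probe set values, 1 per array. Per the submitters' processing notes, the tools were RMA and limma 3.24.15, with no step assigned to either. Neither genome build nor summarisation level is given in the sources used here. Of 38408 probe sets, the platform's probe table gives 17504 a gene, 758 of them several. Gene IDs were matched to loci of the RefSeq table for TAIR10.1, which served for names and gene order only. The contrast dexamethasone minus mock was fitted by lmFit and eBayes (limma 3.58.1, R 4.3.3), two-sided, with Benjamini-Hochberg adjustment over the 17504, and the code was tested on simulated data. Precision is limited by the number of arrays. Members and lists were chosen with earlier results of these data known. Named were all measured members, up to 4 genes per list past the threshold by size of change or else the smallest p, the marker genes, and the 3 nearest patterns. Deviations from the group means correlated at -0.00987, -0.0163 and 0.0305 between arrays of equal number, so the numbers were not taken as pairs. Alternatives were a replicate block, quantile normalization, median centring, leaving out the 30% dimmest probe sets, an intensity trend, robust eBayes, all probe sets, and each array left out. PLT2 itself was not analysed here.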

Additional observations from a re-analysis of the deposited data

How the results depend on the processing

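All refits reuse the arrays by which the members were chosen, so passing again is no separate support for a fall. The falls of AT4G12500 and of both probe sets of AT4G12510 and AT4G12520 passed the threshold in all 13 refits. Their changes were -1.82 to -1.76, -1.41 to -1.39 and -1.56 to -1.54 under the 7 refits of all arrays. The count of member probe sets that fell was 3 to 4 with 1 array left out, and 4 with the replicate block, the dim filter or the intensity trend, where AT4G12490 passed too. Counting the shared probe sets once, an alternative added after the data were seen, left 2. No member rose in any refit. Over all 17504 probe sets 1670 fell in the main fit, against 1244 with the block and 2230 with the trend. Quantile normalization gave 1889 falls and median centring 1694, and the dim filter gave 2089 among 12253. With 1 array left out 896 to 1309 fell, the most without dexamethasone replicate 3, where AT4G12490 also passed. Rises in the fits of the 17504 ran from 828 to 2118. Values near 0 changed sign: AT4G12545 was at -0.01 with quantile normalization, -0.18 without dexamethasone replicate 2 and -0.08 without mock replicate 2, within -0.18 to 0.23 over the fits that left out 1 array, and AT1G62500 at -0.05 without mock replicate 1, within -0.05 to 0.14. AT4G12530 has no value under the dim filter. Of the other family genes 4 to 7 fell over all refits and 4 to 6 with 1 array left out, and 1 rose with the intensity trend, and of the flanking genes 1 fell with quantile normalization, median centring, the dim filter or the trend. The replicate block also ended the call for the marker AT2G39730 (limma adjusted p 0.101, within 0.00154 to 0.139 over its refits). The cause was not tested. Without background levels, folds of dim probe sets are approximate.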

Other observations

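AT4G12540, which lies inside the cluster between AT4G12530 and AT4G12545 but is not among the listed members, was looked at after its values were seen. It had log2 values of 5.05, 4.76 and 5.08 in the dexamethasone arrays, against 4.73, 4.11 and 4.0 in the mock arrays. The groups were 0.03 apart, and the change of 0.69 (SE 0.20) did not pass the threshold, with a limma adjusted p of 0.0577.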
